A study of Mesocricetus auratus with 38 samples.

Results

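The spliceosome, the machine that removes introns from pre-mRNA, is described here through 61 genes of its core particles and of the SR proteins, measured in the liver of Golden Syrian hamsters. The genes were chosen by symbol from the 14631 gene symbols of the deposited tables. No measured value entered the rule, but earlier results of these data were known when the list was made. The study had already named the spliceosome among pathways enriched in genes that were higher on a high-fat diet than in controls. Of the 61 members, 26 were named one by one, and 35 matched a pattern for the Snrp, Lsm2 to Lsm8, Sf3a, Sf3b, Prpf or Srsf families. Cdc5l, Dhx8, Rbm25, Puf60, Tra2a and Tra2b were also on the list, had no row under these symbols, and were not analysed here. All 60 members other than Srsf12, which was at 0 in every library, passed the filter on low counts.

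All animals were male and, per the labels, 22 weeks old, and their livers were taken after 6 hours without food. The control group (labelled Chow diet, 9 libraries) was fed a normal diet in which fat gave 11% of calories. The HFD group (10 libraries) was fed a high-fat diet in which it gave 23%, with 1 g/kg of added cholesterol, and was given a placebo over the last 4 weeks. Both diets lasted 12 weeks. The HFD + MI_D1 group (Dose I, 9 libraries) and the HFD + MI_D2 group (Dose II, 10 libraries) ate the same high-fat diet and were given, over the last 4 weeks, a supplement of combined metabolic activators (CMA). Dose I was made of L-carnitine, N-acetylcysteine and nicotinamide riboside at 200 mg/kg each plus betaine at 400 mg/kg, and Dose II of the first 3 at 400 mg/kg each plus betaine at 800 mg/kg. By the study's methods, the first 3 were given daily by mouth in diluted condensed milk, and betaine in the drinking water. The labels name no animals, so a library stands for 1 animal and the p-values measure the spread between libraries.

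Splicing starts when the U1 particle binds the 5′ end of an intron and the U2 particle binds the branch site near its 3′ end, guided by the U2AF proteins. The U4/U6.U5 tri-snRNP then joins, helicases rearrange the RNAs, and the Prp19 complex and further factors carry the machine through its catalytic steps and take it apart. Each particle holds a small RNA inside a ring of Sm or LSm proteins, and the SR proteins bind exons and recruit the particles. Hepatocytes, which make most of the protein that the liver secretes, splice very large amounts of a few transcripts.

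Total estimated counts, the reads that the kallisto program assigned to genes, were 4.08e+06 to 1.04e+07 per library, of which the members took 0.218% to 0.289%. Libraries carry a letter for their group (C, H, DI, DII) and the number of their label. Control C105 stood apart from the other 8 controls, with a score of 19.2 on the first principal component of the 500 most variable genes against -23.1 to -12.7. The study left out 1 control library after its own principal component analysis, and C105 was taken to be that library. Without C105, DESeq2, the study's program, called 3317 genes in HFD against control, 80 in Dose I and 641 in Dose II against HFD. The study reported the same counts. Values are given first over the other 37 libraries (8 controls) and then over all 38. Markers of hepatocytes, with a summed level of 138000 to 160000 TPM in the 8 controls, were abundant in every library. Counts come from whole liver, so fewer cells of a type and less RNA per cell cannot be told apart.

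Per unit of length, the members covered a wide range of levels, given here as TPM (estimated counts divided by transcript length and scaled to a common total) in the 8 controls. Srsf5, an SR protein, was at 151 TPM ± 16.1 (SD, n = 8), and Srsf11, the lowest SR protein that was detected, was at 13.9 TPM ± 1.64. Prpf19, the ubiquitin ligase that gives the Prp19 complex its name, was at 88.5 TPM ± 7.71 and Dhx16, a helicase that prepares the first catalytic step, at 3.92 TPM ± 0.59. These levels span the range within the Prp19 class.

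Among the U1 proteins, Snrnp70 (U1-70K, which binds the U1 RNA) was at 46.6 TPM ± 6.72, and Prpf40b was lowest at 3.27 TPM ± 0.62. Within the tri-snRNP, Snrnp27 had the highest mean over all 38 libraries and was at 21.2 TPM ± 4.34 in the controls, and Prpf3, a U4/U6 protein, had the lowest and was at 6.41 TPM ± 2.36. Of the 3 LSm proteins, Lsm7 was highest at 49.4 TPM ± 7.63 and Lsm2 lowest at 8.46 TPM ± 2.03. All these SDs are over the same 8 controls.

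The highest TPM in the Sm and U2 classes rested on few reads. Snrpe, an Sm protein, was at 439 TPM ± 68.4 and Sf3b5, a small subunit of the SF3b complex, at 65.7 TPM ± 26.7 (SD, n = 8), but each library held only 43 to 120 counts of Snrpe and 15 to 174 of Sf3b5. The effective length used by kallisto was 0.0122 of that of the median tested gene for Snrpe and 0.0478 for Sf3b5, so their TPM values depend on this small divisor. Snrpd3, the lowest of the Sm class at 10.1 TPM ± 0.80, had a relative length of 1.38, and Snrpa1, the lowest of the U2 class in these controls at 9.06 TPM ± 1.91, had one of 0.609. Sf3b5 also had the largest spread within groups, an SD of 0.50 on the log2 CPM scale, and Snrnp200, a helicase with 311 to 965 counts, the smallest at 0.11.

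To ask which members differed with the diet, the HFD group was compared with the control group by edgeR's quasi-likelihood test, with p-values adjusted over all 9099 tested genes (Benjamini-Hochberg) and a threshold of 0.1. Over 37 libraries 15 of the 60 tested members rose and 8 fell. Of all tested genes, 18.1% rose and 18.1% fell, and 36.2% changed in either direction, against 38.3% of the members. The share of members that changed in either direction was thus near that of all genes. By direction, 25% of the members rose and 13.3% fell, and this split was not tested. Members that rose included proteins of the Sm ring and of the U1 particle, and those that fell included 2 subunits of SF3b and the helicases Snrnp200, Dhx15 and Aqr. Both families also went the other way, as the SF3b subunit Sf3b5 and the helicase Dhx16 rose. The helicases Ddx23, Ddx46 and Dhx38 did not pass. The median log2 fold change was 0.09 over the members and 0.01 over all tested genes.

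With C105 included, 0 members rose and 1, Sf3b3, fell, while 15.6% of all 9045 tested genes changed (6.63% rose and 8.94% fell). The calls described in the next paragraphs, other than that of Sf3b3, thus rest on leaving out C105. At an unadjusted p under 0.05, edgeR gave 6 members over 38 libraries and 28 over 37. The share of all tested genes at this unadjusted cut is not given here. The called share of all tested genes was also lower with C105, at 15.6% against 36.2%. Of the 23 called members only Snrpd2 changed sign over 38 libraries.

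**Figure D1:**
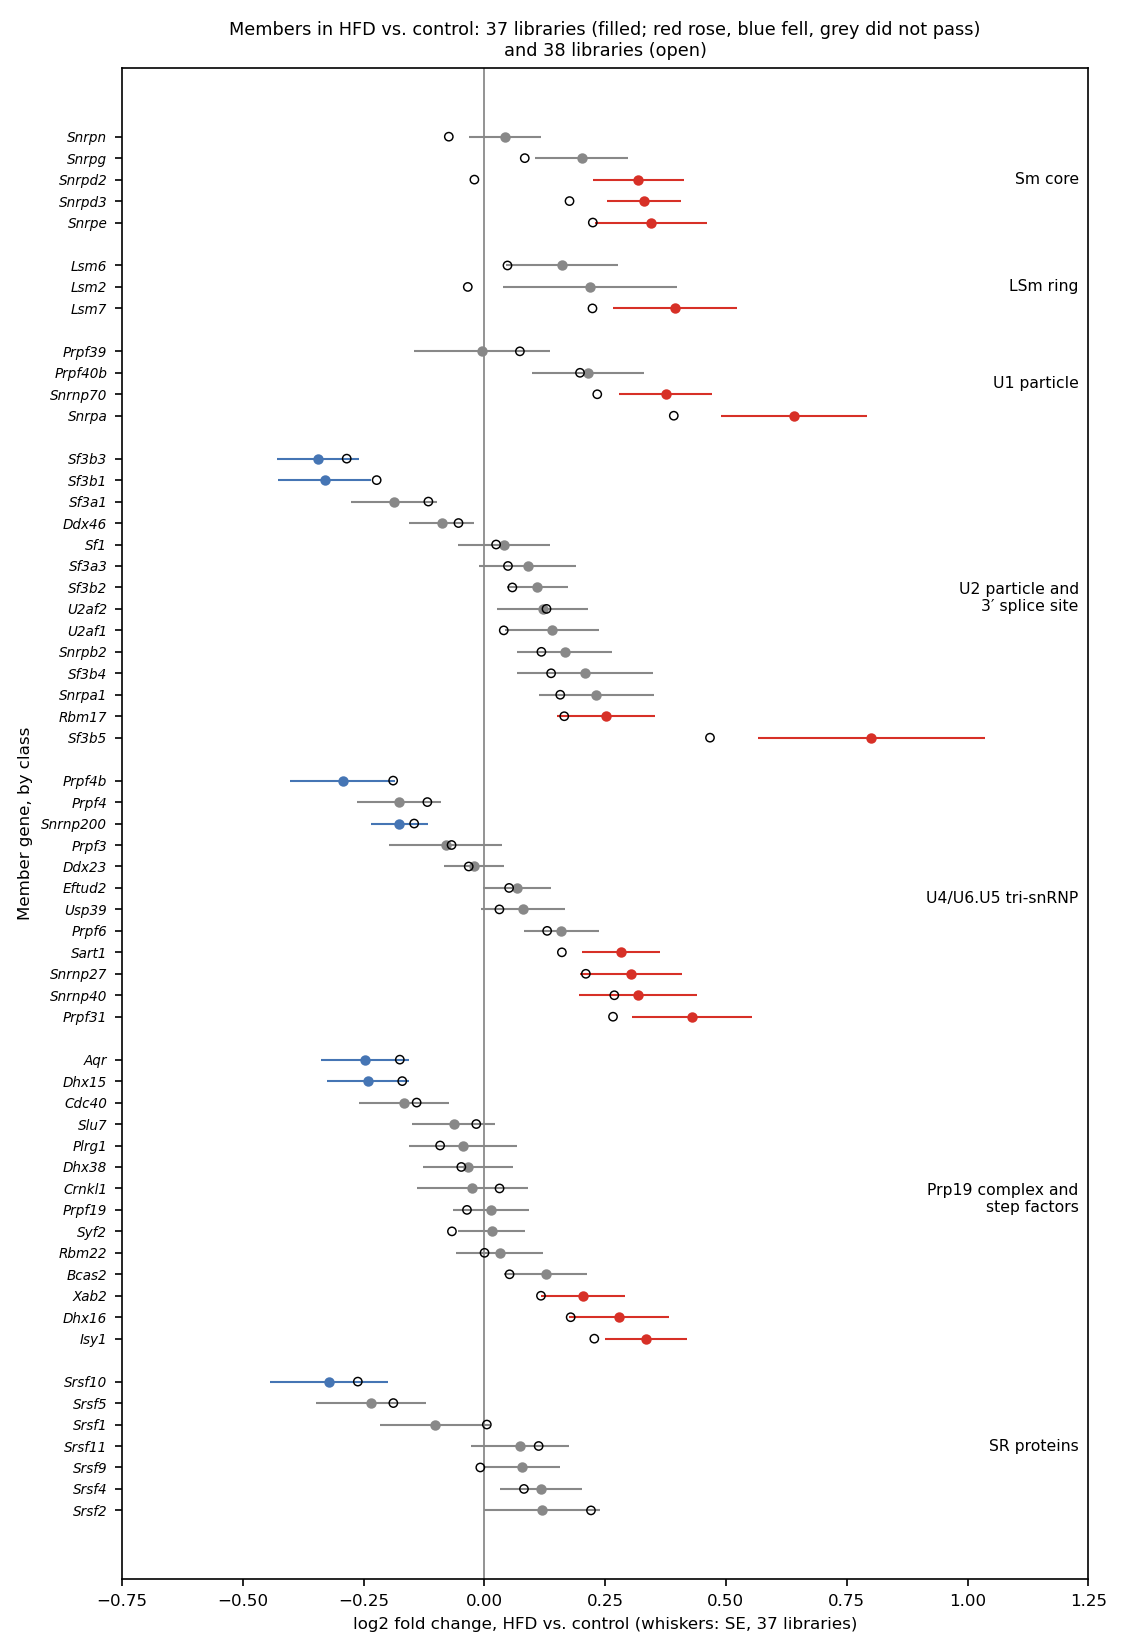
Log2 fold change of 59 of the 60 tested members in HFD against control, grouped by class, with filled points and SE whiskers for 37 libraries (8 controls, red for members that rose, blue for those that fell, grey for those that did not pass) and open circles for 38 libraries. Of the filled points 15 are red and 7 blue, and for 48 of these 59 members the open circle lies nearer to 0 than the filled point.

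In the Sm core, 3 of 5 members rose over 37 libraries and none of the 5 fell. Snrpd3 was at 26.6 to 32.6 CPM (estimated counts scaled to library size, median 30.6) in the 8 controls and at 34.0 to 45.2 CPM (median 37.6) in the 10 HFD livers. All HFD livers were thus above all 8 controls, which held for no other member and for 0.89% of all tested genes. Its log2 fold change was 0.33 (SE 0.08, adjusted p = 0.00146), but C105 held 62.7 CPM, more than any other library, and over 38 libraries the change was 0.18 (SE 0.11, adjusted p = 0.315).

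Snrpd2 was at 26.1 to 37.5 CPM (median 31.9) in the 8 controls and at 33.2 to 49.8 CPM (median 36.6) in the HFD livers, groups that overlapped, with a log2 change of 0.32 (SE 0.10, adjusted p = 0.0113). C105 stood at 111.3 CPM, and with it the log2 fold change was -0.021 (adjusted p = 0.956). Snrpe rose by a log2 fold of 0.35 (SE 0.12, adjusted p = 0.0228), from 8.71 to 14.9 CPM (median 11.1) in the controls to 10.9 to 17.1 CPM (median 14.2) in the HFD group, with overlap. Snrpg (0.20, adjusted p = 0.112) and Snrpn, the SmN protein (0.04, adjusted p = 0.706), did not pass.

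The LSm proteins ring the U6 RNA, and the same proteins also serve in a cytoplasmic complex that starts mRNA decay. Of the 3 that were measured, only Lsm7 passed. It was at 7.90 to 12.5 CPM (median 9.55) in the 8 controls and at 9.19 to 17.7 CPM (median 13.5) in the HFD livers, which overlapped, with a log2 change of 0.39 (SE 0.13, adjusted p = 0.0204). Over 38 libraries it was 0.22 (SE 0.15, adjusted p = 0.367). Lsm2 (0.22, SE 0.18) and Lsm6 (0.16, SE 0.12) had positive values that were close to their errors.

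In the U1 particle, Snrpa and Snrnp70 rose. Snrpa, which binds a loop of the U1 RNA, was at 5.85 to 10 CPM (median 7.75) in the 8 controls and at 7.66 to 16.5 CPM (median 12.7) in the HFD livers. All but 2 HFD livers were above the highest of these controls. The log2 fold change was 0.64 (SE 0.15, adjusted p = 0.00181), the second largest among the members, and 0.39 (SE 0.19, adjusted p = 0.178) with C105, which held 23.2 CPM and was above every other library.

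Snrnp70 was at 60.9 to 93.0 CPM (median 78.8) in the 8 controls and at 76.7 to 140 CPM (median 98.5) in the HFD livers, with overlap, and rose by a log2 fold of 0.38 (SE 0.10, adjusted p = 0.00354). It was at 152 CPM in C105, and over 38 libraries the change was 0.23 (SE 0.12, adjusted p = 0.205). Prpf39 (-0.01, SE 0.14) and Prpf40b (0.21, SE 0.12) did not pass.

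**Figure D2:**
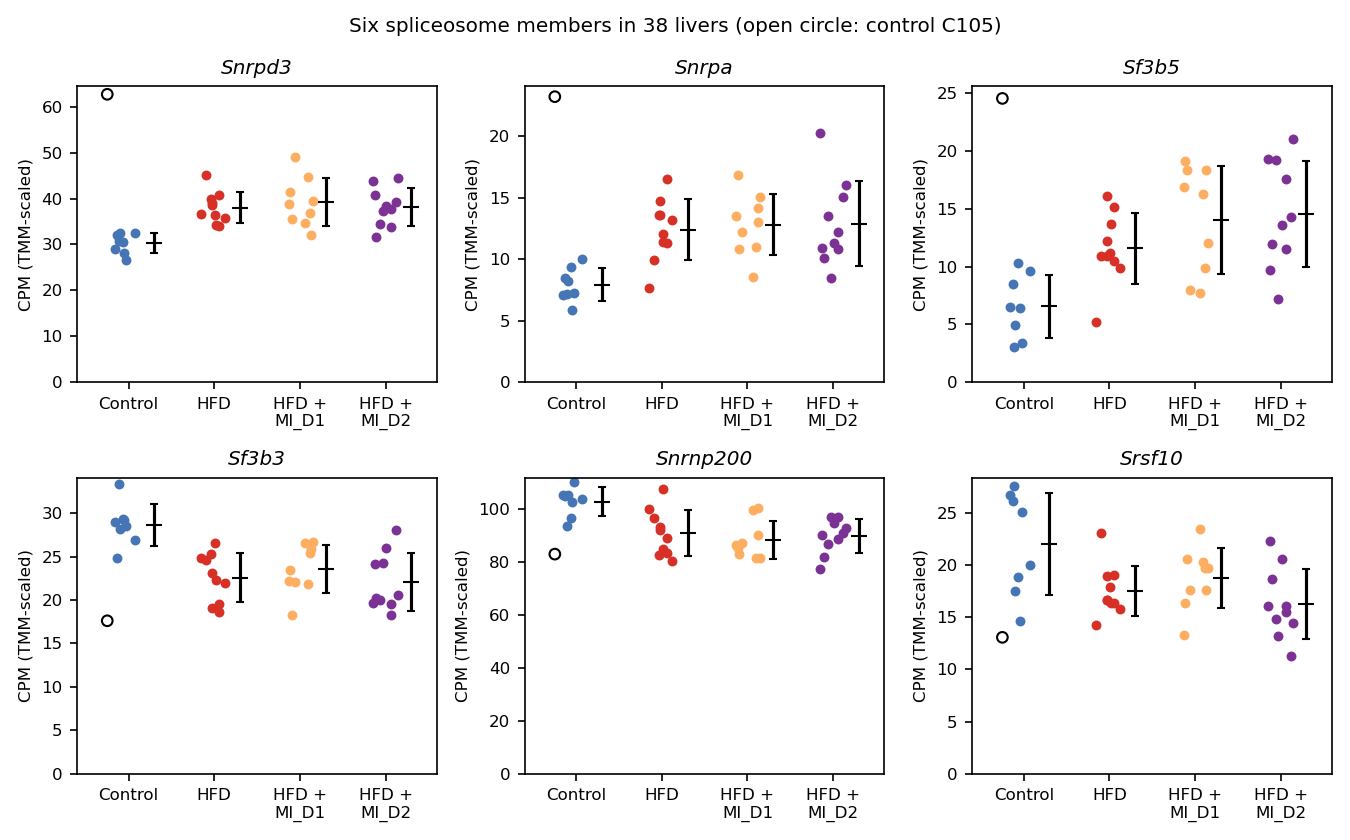
CPM on a linear axis from 0 of Snrpd3, Snrpa, Sf3b5, Sf3b3, Snrnp200 and Srsf10 in every library of the 4 groups, with bars for the mean and SD of each group without C105, which is the open circle. In the 3 upper genes C105 lies above all other points, and in Sf3b3 below all others.

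Of the 14 members of the U2 particle and of 3′ splice site recognition, 2 rose and 2 fell, and the 4 included opposite changes within the SF3b complex, which holds the branch site in the U2 particle. Sf3b3 was at 24.9 to 33.3 CPM (median 28.7) in the 8 controls and at 18.6 to 26.6 CPM (median 22.7) in the HFD livers, so the groups overlapped only at their edges. Its log2 fold change was -0.34 (SE 0.09, adjusted p = 0.0029) over 37 libraries and -0.28 (SE 0.10, adjusted p = 0.0504) over 38, the only member past the threshold in both.

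Sf3b1, the subunit that contacts the branch site and is mutated in some blood cancers, was at 152 to 232 CPM (median 183) in the 8 controls and at 111.7 to 172 CPM (median 151) in HFD, with a log2 change of -0.33 (SE 0.10, adjusted p = 0.00972). It stood at 62.4 CPM in C105, below every other library, and over 38 libraries the change was -0.22 (SE 0.13, adjusted p = 0.293). Sf3b5 was at 3.07 to 10.3 CPM (median 6.44) in the controls and at 5.22 to 16.1 CPM (median 11.04) in HFD, the largest change of any member, a log2 fold of 0.80 (SE 0.24, adjusted p = 0.00995). With C105 at 24.5 CPM included it was 0.47 (SE 0.27, adjusted p = 0.275).

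Rbm17, which binds U2AF-type partners at the 3′ splice site, rose by a log2 fold of 0.25 (SE 0.10, adjusted p = 0.061). U2af1 (0.14, SE 0.10) and U2af2 (0.12, SE 0.09), the U2AF pair that reads the 3′ splice site, did not pass, and neither did Sf1, the branch point binding protein (0.04, SE 0.10). The remaining SF3 subunits Sf3a1 (-0.19, SE 0.09), Sf3a3 (0.09, SE 0.10), Sf3b2 (0.11, SE 0.06) and Sf3b4 (0.21, SE 0.14) did not pass either.

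In the tri-snRNP, 4 of 12 members rose and 2 fell. Prpf31, which clamps the U4 RNA in the particle, was at 10.5 to 20.6 CPM (median 13.7) in the 8 controls and at 12.9 to 23.1 CPM (median 19.3) in the HFD livers, with a log2 change of 0.43 (SE 0.12, adjusted p = 0.00907). Sart1, needed for the tri-snRNP to join, was at 40.6 to 60.2 CPM (median 51.6) in the controls and at 50.2 to 74.4 CPM (median 63.7) in HFD, a log2 change of 0.28 (SE 0.08, adjusted p = 0.00857). Snrnp27 was at 12.1 to 20.7 CPM (median 14.3) in the controls and at 15.5 to 23.1 CPM (median 16.9) in HFD, a log2 change of 0.30 (SE 0.11, adjusted p = 0.0274). The groups overlapped for each of these genes.

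Snrnp40, a U5 protein, also rose (log2 fold change 0.32, SE 0.12, adjusted p = 0.0463). Snrnp200, the helicase that unwinds U4 from U6, was at 93.6 to 110.3 CPM (median 104.5) in the 8 controls and at 80.5 to 107.5 CPM (median 90.6) in HFD, with overlap, and its log2 fold change was -0.18 (SE 0.06, adjusted p = 0.0251). Prpf4b, a kinase that acts on the tri-snRNP, was at 52.2 to 73.4 CPM (median 60.1) in the controls and at 40.1 to 59.9 CPM (median 50.7) in HFD, a log2 change of -0.29 (SE 0.11, adjusted p = 0.0391). Over 38 libraries Snrnp200 was at -0.15 (adjusted p = 0.14) and Prpf4b, with 20.8 CPM in C105, at -0.19 (adjusted p = 0.41). The GTPase Eftud2 (0.07, SE 0.07) and the helicase Ddx23 (-0.02, SE 0.06), did not pass.

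Of the 14 Prp19 complex and step factors, 3 rose and 2 fell. Isy1, a component of the catalytic spliceosome, was at 22.9 to 30.4 CPM (median 24.0) in the 8 controls and at 26.8 to 40.02 CPM (median 31.7) in HFD, which overlapped, a log2 change of 0.33 (SE 0.08, adjusted p = 0.00335). Dhx16 was at 11.7 to 18.3 CPM (median 13.0) in the controls and at 13.6 to 21.3 CPM (median 16.7) in HFD, a log2 change of 0.28 (SE 0.10, adjusted p = 0.0416). Xab2 rose as well (0.20, SE 0.09, adjusted p = 0.0747), a call lost without any of 7 single libraries.

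Dhx15, the helicase that takes the spent spliceosome apart, was at 51.8 to 70.3 CPM (median 58.9) in the 8 controls and at 44.3 to 58.7 CPM (median 50.3) in HFD, a log2 change of -0.24 (SE 0.08, adjusted p = 0.0302). Aqr, an intron-binding helicase, was at 26.7 to 33.6 CPM (median 28.8) in the controls and at 18.6 to 30.5 CPM (median 24.6) in HFD, a log2 change of -0.25 (SE 0.09, adjusted p = 0.0399), and was not called without H113. The groups overlapped for both helicases. Over 38 libraries the changes were -0.17 for Dhx15 (adjusted p = 0.287) and -0.17 for Aqr (adjusted p = 0.306). Prpf19 itself had a log2 change of 0.01 (SE 0.08).

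None of the 7 tested SR proteins rose, and 1 fell. Srsf10, an SR protein that can repress splicing, was at 14.6 to 27.6 CPM (median 22.5) in the 8 controls and at 14.3 to 23.1 CPM (median 16.7) in HFD, groups with broad overlap, and its log2 fold change was -0.32 (SE 0.12, adjusted p = 0.0462). The call was lost without C103 or C106, and over 38 libraries the change was -0.26 (SE 0.13, adjusted p = 0.196). Srsf5 was at 210 to 267 CPM (median 237) in the controls and at 148 to 270 CPM (median 204) in HFD and did not pass (-0.23, SE 0.11, adjusted p = 0.122). Srsf1 (-0.10, SE 0.11), Srsf2 (0.12, SE 0.12), Srsf4 (0.12, SE 0.09), Srsf9 (0.08, SE 0.08) and Srsf11 (0.07, SE 0.10) did not pass either.

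C105 departed from the other 8 controls in most members. It lay outside the range of the 8 for 52 of the 60 members, above it for 33 and below it for 19, and 8 lay inside. That is 86.7% of members outside against 67.3% of all tested genes. All 5 Sm and all 3 LSm members were above the range, while 5 of the 7 SR proteins were below it and 2 above.

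Against all 37 other libraries together, C105 was above every one for 22 members and below every one for 12, 56.7% of members against 40.2% of tested genes. Srsf1, the founding SR protein, was at 13.9 CPM in C105 and at 29.5 to 55.3 CPM in the other 37 libraries. Srsf2 was at 15.2 CPM in C105 and at 27.2 to 62.9 CPM in the others. Srsf9 was on the other side, at 66.2 CPM against 33.5 to 55.9. For these 3 genes C105 thus lay beyond every other liver of any group, and none of the 3 passed in HFD against control.

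The fold changes of members ran with transcript length, a property that the choice of members did not use. Relative length was the ratio of a gene's counts to its TPM, set to 1 at the median tested gene. Across the 60 members the Spearman correlation of the log2 fold change in HFD with length was -0.556 over 37 libraries and -0.397 over 38, and across all 9099 tested genes it was -0.26 and -0.166. Genes are not independent replicates, and all values share the same libraries, so these are descriptions without a test. Of the 20 shortest members (relative length 0.0122 to 0.689) 7 rose and 1 fell, with a median log2 fold change of 0.18. Of the 20 longest (1.32 to 3.38) 2 rose and 6 fell, with a median of -0.03, and the middle 20 gave 6 and 1 with a median of 0.05. All tested genes ran the same way. In 20 bins of length, their median log2 fold change was 0.22 in the shortest bin and -0.18 in the longest. The share of all genes called at each length is not given, so the counts by length are not read as particular to the members.

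Individual libraries also differed in how their counts ran with length. Across tested genes, the deviation of a library from the mean had a Spearman correlation with gene length of 0.121 to 0.344 in the 8 controls, -0.357 in C105, -0.203 to 0.176 in HFD, -0.264 to 0.134 in Dose I and -0.284 to 0.114 in Dose II. The 20 shortest members lay at a median of -0.325 to -0.00483 log2 CPM from their mean over all libraries in the 8 controls, at 0.59 in C105 and at -0.16 to 0.15 in HFD. C105 was therefore at the opposite end from its own group. The part of this library trend in the results was not tested beyond the fit that follows.

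When each library's own trend with length was removed from the fit, 12 members rose and 5 fell over 37 libraries (15.6% and 16% of all tested genes), and the median log2 fold change of the members fell from 0.09 to 0.04. The members' correlation with length became -0.243. Of the 23 calls, 9 were lost in this fit, among them the short Snrpd2 (0.13, adjusted p = 0.278), Snrpe (0.13, adjusted p = 0.383), Lsm7 (0.19, adjusted p = 0.229) and Snrnp27 (0.17, adjusted p = 0.212). The long Snrnp200 (-0.01, adjusted p = 0.926), Prpf4b (-0.19, adjusted p = 0.151) and Aqr (-0.16, adjusted p = 0.18) were lost too, as was Rbm17 (0.22, adjusted p = 0.102). Snrpd3 (0.36, adjusted p = 0.00118), Snrpa (0.59, adjusted p = 0.00308), Snrnp70 (0.34, adjusted p = 0.00686), Sf3b3 (-0.32, adjusted p = 0.007) and Sf3b1 (-0.26, adjusted p = 0.0326) still passed. Prpf6 (0.20, adjusted p = 0.063) and Prpf40b (0.27, adjusted p = 0.0816) rose and Srsf5 (-0.27, adjusted p = 0.0733) fell in this fit and did not pass in the first.

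**Figure D3:**
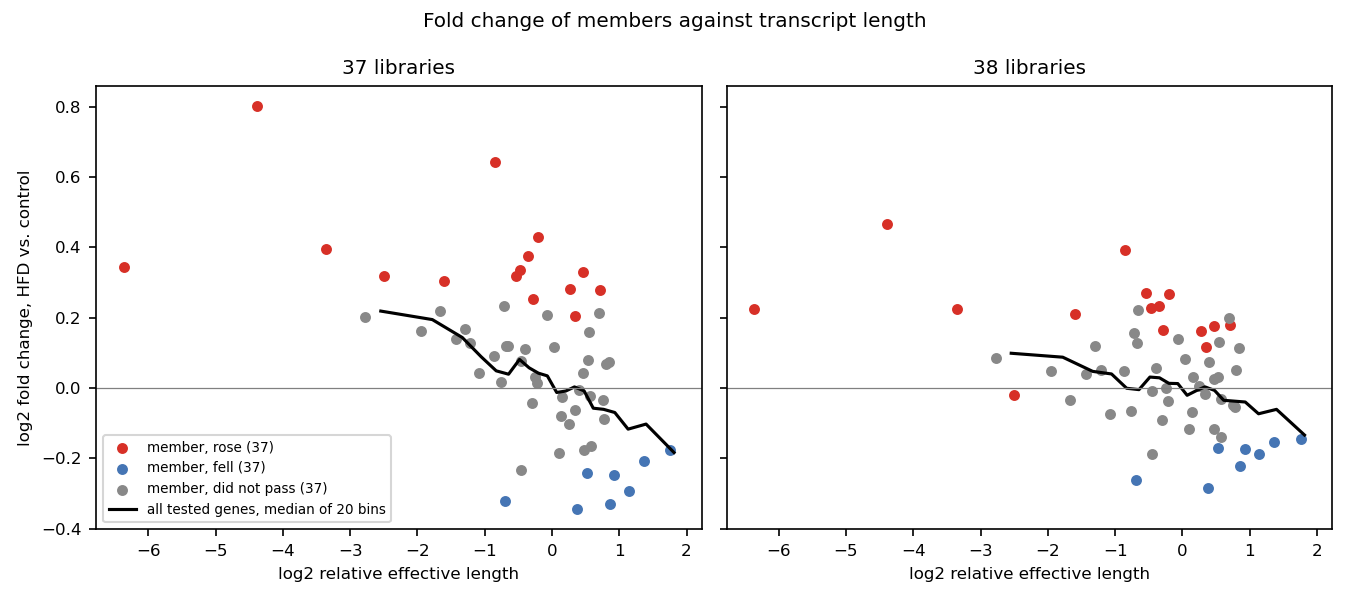
Log2 fold change in HFD against control by log2 relative effective length, for the 60 members (points, coloured in both panels by their call over 37 libraries) and for all tested genes (line, median of 20 bins), over 37 and over 38 libraries. The line falls from short to long genes in both panels, and most blue points lie at lengths above the median gene, at 0 on the x axis.

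**Figure D4:**
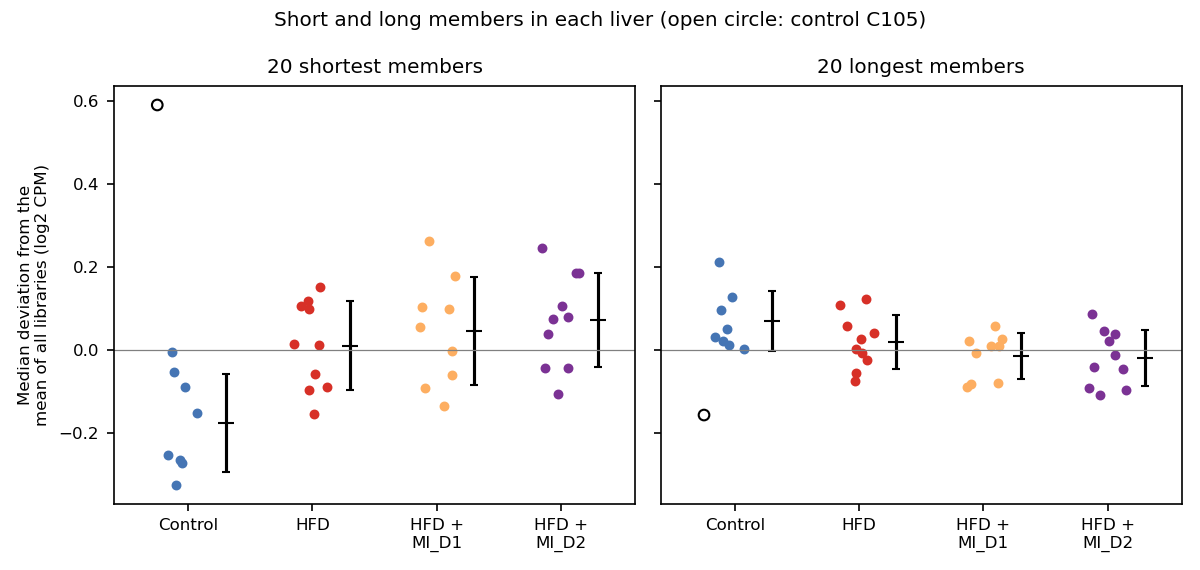
Median deviation of the 20 shortest and the 20 longest members from their mean over all libraries, in log2 CPM, for every library by group, with bars for the mean and SD of each group without C105. The 8 controls lie below 0 for short members and above 0 for long members, and C105, the open circle, lies at 0.59 and -0.16.

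Markers of other cell types moved with the diet as well. Of 14 tested macrophage markers 9 rose in HFD over 37 libraries (5 over 38) and none of them fell, with a summed level of 174 to 253 TPM in the 8 controls, 324 in C105 and 227 to 396 in HFD. Of 8 hepatocyte markers 1 rose and 4 fell, and their sum of 138000 to 160000 TPM in the 8 controls and 154000 in C105 stood against 103000 to 136000 in HFD. Of 10 endothelial markers 2 rose (65.4 to 98.0 TPM in the 8 controls and 65.2 to 139 in HFD), 1 of 8 stellate markers fell (32.2 to 54.9 and 25.6 to 59 TPM) and 1 of 4 cholangiocyte markers rose (2.55 to 7.22 and 3.36 to 10 TPM). Over 38 libraries edgeR called 3 hepatocyte markers, which fell, and the same stellate marker, and the endothelial and cholangiocyte calls were lost. None of 3 lymphocyte markers passed in edgeR's test (9.67 to 19.0 and 7.96 to 19.1 TPM), and no tested marker was at 0 in every library. The core particles are used by every nucleated cell type, and the part of cell makeup in their changes was not tested.

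To ask whether CMA altered the members on the HFD, both dose groups were compared with the HFD group. In Dose I none of the 60 members passed in edgeR's test, beside 0.187% of all tested genes called, and none had an unadjusted p under 0.05. In Dose II none of the 60 passed, beside 5.63% of tested genes called, and 6 had an unadjusted p under 0.05. Dose II against Dose I also gave none, beside 0% of all genes called, and 2 had an unadjusted p under 0.05. DESeq2 gave 0 members in each of the 3 comparisons as well, with 0, 6 and 2 at an unadjusted p under 0.05. By limma on log2(TPM + 1), 0, 4 and 0 members passed and 5, 9 and 2 had an unadjusted p under 0.05. Over 38 libraries edgeR again gave 0 in each, beside 0.0553%, 2.7% and 0% of all genes called. At an unadjusted p under 0.05 it gave 0, 0 and 1. The percentages here are of genes called at the adjusted threshold of 0.1. The share of all genes at an unadjusted p under 0.05 is not given, so those counts are not set against it. The smallest adjusted p of any member in edgeR's test was 0.55 for Dose I, 0.217 for Dose II and 1 between the doses.

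The intervals of these differences set a bound on most members. For 58 of 60 members the 95% interval of the log2 difference lay within 0.5 of 0 on both sides in Dose I, and the same number did in Dose II. Except for Sf3b5 and Snrpa, every called member had a diet change smaller than 0.5, such as 0.43 for Prpf31. A bound of 0.5 therefore does not exclude a difference as large as the diet change of those members. The widest upper bounds were those of Sf3b5, at 0.70 in Dose I (estimate 0.28, SE 0.21) and 0.73 in Dose II (estimate 0.33, SE 0.21). Sf3b5 was at 7.70 to 19.2 CPM (median 16.3) in Dose I and at 7.18 to 21.0 CPM (median 13.97) in Dose II, ranges that contain most of the HFD values.

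The members called in HFD kept levels in the dose groups that overlapped those of HFD. Snrpd3 was at 32.0 to 49.1 CPM (median 38.9) in Dose I and at 31.7 to 44.4 CPM (median 38.01) in Dose II. Snrpa was at 8.56 to 16.9 CPM (median 13.0) in Dose I and at 8.46 to 20.3 CPM (median 11.8) in Dose II. Sf3b3 was at 18.3 to 26.7 CPM (median 23.5) in Dose I and at 18.2 to 28.1 CPM (median 20.4) in Dose II.

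Among the members with an unadjusted p under 0.05 in Dose II against HFD, Snrpd2 was at 0.20 log2 units (95% interval 0.02 to 0.37, adjusted p = 0.217). Prpf4, a U4/U6 protein, was at -0.18 (95% interval -0.34 to -0.02, adjusted p = 0.231). By limma on log2(TPM + 1), which is a different measure and pseudocount, 4 members fell in Dose II, while 6.48% of all tested genes were called and 4.82% fell. They were Eftud2 (-0.19, adjusted p = 0.0736), Prpf19 (-0.22, adjusted p = 0.0701), Prpf4 (-0.23, adjusted p = 0.0734) and Sf3b2 (-0.17, adjusted p = 0.0857). On this scale all tested genes together had a median difference of -0.06.

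Against the control group, comparisons that were added after the data had been seen, 20 members rose and 9 fell in Dose I (20.6% and 20.1% of all tested genes), and 22 rose and 13 fell in Dose II (23.9% and 23.4%) over 37 libraries. These comparisons use the same 8 controls as HFD, so their values are not independent of it. Differences between the dose groups and HFD are judged by the comparisons with HFD above, within the bounds given there. In Dose I the smallest adjusted p among members that rose belonged to Snrpd3 (0.37, SE 0.08, adjusted p = 0.000346), Snrnp70 (0.47, SE 0.10, adjusted p = 0.000366), Sf3b5 (1.09, SE 0.24, adjusted p = 0.00062), Snrpa (0.68, SE 0.15, adjusted p = 0.000834) and Lsm7 (0.54, SE 0.13, adjusted p = 0.00171). Snrnp70 was at 93.7 to 124.5 CPM (median 108.6) in Dose I, above all 8 controls, a separation that 1.81% of all tested genes had. Those that fell included Snrnp200 (-0.22), Prpf4 (-0.29), Sf3b3 (-0.28) and Dhx15 (-0.26).

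In Dose II against control the members that rose with the smallest adjusted p were Snrpd2 (0.52, SE 0.10, adjusted p = 4.63e-05), Snrnp70 (0.46, SE 0.10, adjusted p = 0.000188), Sf3b5 (1.13, SE 0.23, adjusted p = 0.000192), Lsm7 (0.60, SE 0.13, adjusted p = 0.000272) and Snrpa (0.69, SE 0.15, adjusted p = 0.000361). Those that fell included Sf3b3 (-0.38, SE 0.09, adjusted p = 0.000465), Prpf4 (-0.36, SE 0.09, adjusted p = 0.00122), Srsf10 (-0.43, SE 0.12, adjusted p = 0.00494) and Sf3b1 (-0.33, SE 0.10, adjusted p = 0.00602).

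With C105 included, 5 members rose and 2 fell in Dose I (10.4% and 11.4% of all tested genes) and 12 rose and 6 fell in Dose II (15.6% and 17.3%). In Dose I the members that rose were Lsm7, Snrnp70, Sf3b5, U2af2 and Xab2, and Snrnp200 was among those that fell. In Dose II over 38 libraries Sf3b3 (-0.32, SE 0.10, adjusted p = 0.0114), U2af2 (0.29, SE 0.09, adjusted p = 0.0174) and Prpf4 (-0.30, SE 0.10, adjusted p = 0.0215) were among the members called.

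**Figure D5:**
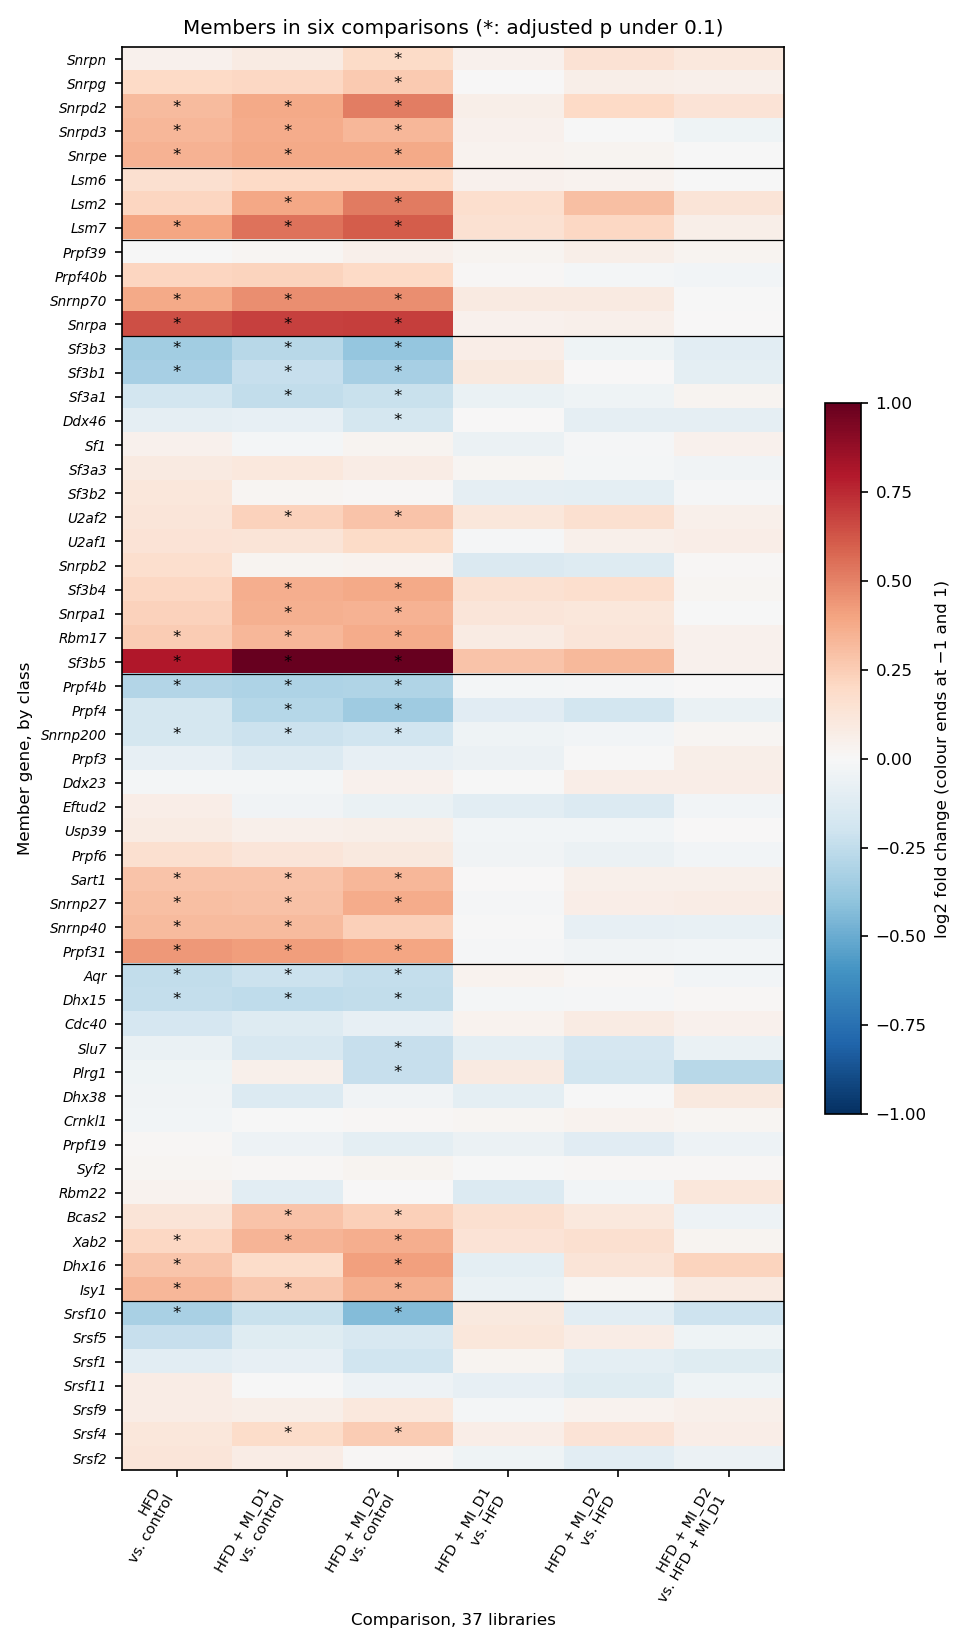
Log2 fold change of 59 of the 60 tested members (rows, by class) in 6 comparisons over 37 libraries, as a colour from blue (lower) to red (higher), with an asterisk where the adjusted p was under 0.1. The 3 columns against control hold 22, 28 and 34 asterisks, and the 3 columns between the groups on HFD hold none.

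The mix of transcripts behind a gene can be read only in part from its effective length in each library. Kallisto averages this length over the transcripts that it finds, but the length can also vary with the library. From the 8 controls to HFD its median, relative to all libraries, rose in the very short Snrpd2 (0.986 to 0.999) and Sf3b5 (0.957 to 1.003). Neither rise passed over 37 libraries (limma, adjusted p = 0.246 and 0.11). The median fell in the long Ddx23 (1.007 to 0.999) and Eftud2 (1.007 to 0.999). Other long members, such as Prpf6, Usp39 and Dhx16, had the same medians in both groups, so this fall was not particular to those genes. The part of the transcript mix in such shifts was not tested. The length was constant to an SD of at most 0.01 (log2) for 41 of the 60 members, 68.3% against 71.2% of 7899 genes with a value in every library. The most variable members were Prpf3 (SD 0.34) and Srsf10 (SD 0.25). Srsf10 had a relative length of 0.67 to 1.07 (median 0.84, where 1 is its median over all libraries) in the 8 controls and of 0.84 to 1.36 (median 1.04) in HFD, a log2 difference of 0.25 (SE 0.10) that did not pass (limma, adjusted p = 0.158).

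Of the 19 members whose length varied, 2 differed between HFD and control over 37 libraries, beside 7.17% of the 2272 genes tested in this way. Prpf19 was at 0.93 to 0.98 (median 0.97) in the 8 controls and at 0.96 to 1.07 (median 0.997) in HFD, a log2 difference of 0.05 (SE 0.01, limma, adjusted p = 0.0402). Dhx38, a helicase of the second catalytic step, differed by 0.02 (SE 0.01, adjusted p = 0.0754). Over 38 libraries limma gave none of the 19, with 0.66% of all genes called. At an unadjusted p under 0.05 it gave 3, a cut whose share over all genes is not given. Between either dose and HFD it gave none of the 19 and none at an unadjusted p under 0.05.

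Genes of neighbouring steps, which the choice of members left out, were taken from 8 lists with 90 tested genes. Of these, 15 rose and 13 fell in HFD against control over 37 libraries, and 5 rose and 5 fell over 38. Of all tested genes, 18.1% rose and 18.1% fell over 37 libraries, and 6.63% rose and 8.94% fell over 38, so the shares of these lists lay near those of all genes. Of the 9 tested genes that load Sm rings onto snRNAs, 2 rose and 2 fell, among them Gemin5, which recognises snRNAs (-0.56, SE 0.15, adjusted p = 0.00442), Gemin4 (-0.35, SE 0.08, adjusted p = 0.00225) and Gemin7 (0.40, SE 0.15, adjusted p = 0.0504). Of 11 genes of the minor spliceosome, which removes a rare class of introns, only Snrnp35 rose (0.49, SE 0.13, adjusted p = 0.0056). Among 6 kinases of SR proteins Clk3 (0.28, SE 0.08, adjusted p = 0.0104) and Clk2 (0.23, SE 0.11, adjusted p = 0.0938) rose and Srpk1 fell (-0.18, SE 0.07, adjusted p = 0.0654).

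Of 15 tested tissue splicing regulators 1 rose and 4 fell, with Ptbp3 at -0.92 (SE 0.26, adjusted p = 0.00797), Qk at -0.75 (SE 0.23, adjusted p = 0.0131), Celf1 at -0.52 (SE 0.11, adjusted p = 0.000621) and Rbm10 at 0.28 (SE 0.09, adjusted p = 0.0175). Of 19 hnRNPs, which coat nascent transcripts, 3 rose and 3 fell, such as Hnrnpm (0.25, SE 0.09, adjusted p = 0.0385) and Hnrnph2 (-0.24, SE 0.08, adjusted p = 0.0166). Of 7 exon junction genes 2 rose and 1 fell, with Magoh at 0.34 (SE 0.14) and Casc3 at -0.40 (SE 0.14). Of 8 genes of mRNA export 2 rose and 1 fell, with Ddx39b at 0.29 (SE 0.10) and Thoc2 at -0.36 (SE 0.15). Of 15 genes of 3′ end processing 2 rose and 1 fell, with Cpsf3 at 0.35 (SE 0.09, adjusted p = 0.00559) and Cpsf2 at -0.20 (SE 0.09, adjusted p = 0.0933). With C105 included, Gemin4, Gemin5, Snrnp35, Clk3, Srpk1, Celf1, Ptbp3, Rbm10 and Hnrnpm were called in the same direction. The other genes named from these lists were not called over 38 libraries, among them Gemin7 (0.21, adjusted p = 0.491), Hnrnph2 (-0.12, adjusted p = 0.591), Cpsf3 (0.21, adjusted p = 0.248) and Ddx39b (0.19, adjusted p = 0.279). When edgeR used the length offset over 37 libraries, 12 of the 90 rose and 10 fell (15.6% and 16% of all tested genes). Of the named genes, Srpk1 (-0.09, adjusted p = 0.439), Clk2, Gemin7, Magoh, Thoc2 and Cpsf2 were not called in that fit, and the others were.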

How the data were processed

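Liver mRNA of 38 hamsters was sequenced on an Illumina NovaSeq. The authors quantified reads with kallisto on MesAur1.0 and deposited its estimated counts per gene symbol, unnormalized, together with TPM. Kallisto shares reads between near-identical transcripts, so Snrpn and other close copies are uncertain to that extent. Groups were taken from the labels. The values of 1 member, which is included in the counts, are not reported here. The members and gene lists were chosen with earlier results of these data known.

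Estimated counts were rounded to whole numbers, filtered with filterByExpr and scaled by TMM, and edgeR 4.0.16 in R 4.3.3 ran its quasi-likelihood F test with 1 coefficient per group over 37 libraries, and again over 38. P-values were adjusted over all tested genes (Benjamini-Hochberg), with 0.1, the study's threshold, for a call. An SE was obtained by dividing the absolute log2 fold change by the square root of its F statistic. CPM used TMM factors over all 38 libraries. The length offset removed a lowess trend (span 0.3) of each library's log2 CPM with relative length. Effective lengths, in genes with at least 5 counts per library and an SD above 0.01, were compared with limma 3.58.1, a test added after seeing the data. The scripts were tested on simulated counts. The alternatives were DESeq2 1.42.0, RLE scaling, other count filters, fits of the 2 groups only, limma-trend on log2(TPM + 1) or log2(TPM + 0.1), leaving out single libraries, and a stricter threshold of 0.05. Values are given for members with the 12 smallest adjusted p per direction in HFD against control, those called over 38 libraries, the highest and lowest TPM of each class, the 5 smallest per direction in the other comparisons and up to 2 genes per direction of each other list. Other members are named with their estimate and SE only, and Snrnp40, Rbm17 and Xab2 were also given after their values were seen. No sequences were used here.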

Additional observations from a re-analysis of the deposited data

Results flagged for a closer look

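Among the 23 members called in HFD against control, the highest or lowest library of a group was set against the range of the others in 92 groups, and 19 groups held a library with a gap larger than Dixon's 95% critical value. The nominal rate of about 1 in 20 groups holds for independent groups, and these share the same libraries. The share over all tested genes was not computed for this rule. Of the 19, 15 were control C105, which lay outside the other 8 controls for 67.3% of all tested genes.

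C105 was the highest control for Snrpd2 (111.3 CPM against 26.1 to 37.5 in the others), Snrpd3 (62.7 against 26.6 to 32.6), Lsm7 (22.1 against 7.9 to 12.5), Snrnp70 (152 against 60.9 to 93), Snrpa (23.2 against 5.85 to 10), Rbm17 (53.1), Sf3b5 (24.5), Prpf31 (31.2), Sart1 (91.8), Isy1 (44) and Xab2 (33.6). It was the lowest control for Sf3b1 (62.4 CPM against 152 to 232), Prpf4b (20.8 against 52.2 to 73.4), Aqr (15.5) and Dhx15 (33.1). The members above were those that rose in HFD and the members below were those that fell, so in these 15 genes C105 lay on the side of the HFD group. It could also lie beyond that group, as for Snrpd2, which was at 33.2 to 49.8 CPM in HFD. The share of all tested genes with C105 on the side of HFD was not computed.

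The other 4 libraries each stood out in 1 gene. Snrpe was at 21.5 CPM in DI124 (11.3 to 15.5 in the others of Dose I) and at 18 CPM in DII130 (13.2 to 15.5 in the others of Dose II), Rbm17 at 61.8 CPM in DII135 and Snrnp27 at 25.6 CPM in DII138.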

How the results depend on the processing

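Of the choices tried, the library C105 moved the counts most. With it, members called in HFD against control went from 23 to 1 (1 with the length offset too), in Dose I against control from 29 to 7 (4) and in Dose II against control from 35 to 18 (15), while genes of the other splicing lists went from 28 to 10 (8) and members with a changed effective length from 2 to 0. Of all tested genes, 3296 of 9099 were called in HFD against control over 37 libraries. With C105, 1409 of 9045 were called in HFD, 1972 in Dose I and 2980 in Dose II, each against control. The length offset over 38 libraries gave 1454, 2023 and 2909. Snrpd2 turned to a log2 fold change of -0.021 over 38 libraries and -0.048 with the length offset. Members called in Dose II against HFD went from 0 to 4 by limma on log2(TPM + 1) and 4 on log2(TPM + 0.1), and the cause was not tested. Those limma fits called 590 and 588 of 9099 tested genes. Over 37 libraries the HFD count was 23 by DESeq2, 23 with RLE, 22 with no filter, 25 with 2 groups only, 20 at a threshold of 0.05 and 17 with the length offset, and each of the 23 called members kept its direction in these fits. Of all tested genes, DESeq2 called 3317 of 10727, RLE 3288 of 9099 and no filter 3115 of 12976. The fit of 2 groups only called 3257 of 8772 and the length offset 2876 of 9099. All-gene counts are not given for the threshold of 0.05 or for the fits without 1 library that follow.

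Leaving out 1 library gave 21 to 28 members in HFD against control, and 17 of the 23 were called in all 18 fits. Among the others the call was lost for Rbm17 without C103, H116 or H117, Snrnp40 without C103, Aqr without H113, Srsf10 without C103 or C106, and Xab2 without any of 7 libraries. The comparisons between groups on HFD gave 0 to 0. Members with few counts, such as Sf3b5 and Lsm2, have wide intervals, and 8 controls limit what can be seen. No paired analysis was possible because the replicate numbers in the labels run on through the groups and no number is shared.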
